A study of Mus musculus with 6 samples.

Results

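The Inhibitor of DNA binding (Id) genes Id1, Id2, Id3 and Id4 and the E protein genes Tcf3 (E2A), Tcf4 (E2-2) and Tcf12 (HEB) were examined in regulatory T (Treg) cells differentiated in culture with or without sorafenib (Sora), a multikinase inhibitor used against liver cancer. They were chosen by symbol, and all 7 were found among the 22939 genes of the table. RNA was sequenced from 3 libraries of untreated Treg cells (ctrl-Treg, the controls) and 3 of Treg cells exposed to Sora (Sora-Treg). Both groups started from naive CD4+ T cells of C57BL/6J mice with GFP knocked in at the locus of Foxp3, the Treg lineage factor that GFP reports. Both were stimulated with anti-CD3 and anti-CD28 and polarized with TGF-β1, anti-IFN-γ and anti-IL4, and GFP+ cells were sorted. The labels separate the groups by Sora treatment only, and its concentration and duration in the sequenced cells, any vehicle, batches and the age of the reporter mice were not given in the sources used here. Nothing in the labels says whether the libraries came from separate animals or cultures, so p-values measure the spread between these libraries, which may be technical. Because GFP+ cells were sorted from both cultures, the libraries describe cells that had turned on Foxp3, not the whole culture.

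E proteins are basic helix-loop-helix transcription factors that pair with one another and bind the E box, a short DNA motif found at many lymphocyte genes. Id proteins carry the helix-loop-helix but lack the basic region that contacts DNA, so a pair of an Id and an E protein cannot bind the motif. In T cells, Id3 is known as a target of T cell receptor signals through ERK and Egr factors, Id2 is known for its high level in effector and innate-like lymphocytes, and both are known to be needed for the maintenance of Treg cells. BMP and TGF-β signals through SMAD factors are known regulators of Id1, Id2 and Id3 in many cell types.

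To show the sequences next to the starts of the 2 members whose level changed most, the 250 bases before each annotated start are given from RefSeq on GRCm38.p6, 5′ to 3′ on the strand of the gene. Id2 lies on chromosome 12 (window chr12:25096093-25096342, minus strand) and Id3 on chromosome 4 (window chr4:136143572-136143821, plus strand). Capitals mark matches on either strand to the E box CANNTG, the SMAD box CAGAC or GTCTG, the GC-rich SMAD site GGCGCC, the EGR sites GCGGGGGCG and GCGTGGGCG with their complements, and the FOXO site GTAAACA or TGTTTAC.
Id2: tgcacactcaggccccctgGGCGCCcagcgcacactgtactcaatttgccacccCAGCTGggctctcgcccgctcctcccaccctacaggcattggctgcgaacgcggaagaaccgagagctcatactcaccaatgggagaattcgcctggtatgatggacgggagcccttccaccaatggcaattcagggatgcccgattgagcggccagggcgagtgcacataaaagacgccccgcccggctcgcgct
Id3: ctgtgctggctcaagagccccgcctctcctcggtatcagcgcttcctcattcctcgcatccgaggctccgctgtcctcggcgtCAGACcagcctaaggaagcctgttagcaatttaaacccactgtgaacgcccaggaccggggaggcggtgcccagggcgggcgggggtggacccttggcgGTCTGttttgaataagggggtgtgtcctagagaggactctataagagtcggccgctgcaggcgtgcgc
Both windows had a GC content of 62.8%. The Id2 window held 1 E box, which began 196 bases before the start and read CAGCTG, and 1 GC-rich SMAD site, which began 231 bases before it. The Id3 window held 2 SMAD boxes, which began 167 and 68 bases before the start, and no E box. Neither window held these EGR or FOXO letters. Among 27025 promoter windows of the same length, 66.0% held an E box, 42.1% a SMAD box, 9.54% the GC-rich SMAD site, 3.05% an EGR site and 3.09% the FOXO site. A match describes the letters only and is no evidence of binding.

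The remaining members whose windows were read were Id4, Tcf3 and Tcf12. No window was found for Id1, and Tcf4 was not looked up. The Id4 window on chromosome 13 held the GC-rich SMAD site 148 bases before its start and no E box. The Tcf3 window on chromosome 10 held 1 E box, 54 bases before its start. Of the 3 annotated start windows of Tcf12 on chromosome 9, 2 held an E box each, and 1 of these also held a SMAD box.

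To place the members among all genes, counts were compared between the groups with the quasi-likelihood test of edgeR, adjusted by Benjamini-Hochberg over the 13463 genes that passed a filter on low counts. A gene was called at an adjusted p under 0.05, and named a differentially expressed gene (DEG) if its log2 fold change was also beyond 1 in either direction. Of the 7 members, 6 passed the filter, all 6 were called, and in none did the groups overlap. Id2 and Tcf4 were higher and Id1, Id3, Tcf3 and Tcf12 lower in Sora-Treg cells. This count must be read against a background in which 59.6% of tested genes were called, 29.7% higher and 29.9% lower, and in which the groups did not overlap in 63.7%, with Sora-Treg cells above in 31.8% and below in 32.0%. DEGs were 11.3% of tested genes, and among the members only Id2 (higher, as were 6.3% of genes) and Id3 (lower, as were 4.97%) were DEGs. Libraries held 30727686 to 37717324 counts. The coefficient of variation between libraries of a group in the edgeR fit, beyond counting noise, was 4.29%, a spread that may be technical. The balance of calls depended on the scaling, with 3994 genes higher and 4028 lower under TMM scaling and 2862 higher and 5614 lower under scaling by library totals alone, under which the median over all genes shifted by -0.12 on the log2 scale. The direction and call of all 6 members held under both, and under RLE and upper quartile scaling.

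**Figure D1:**
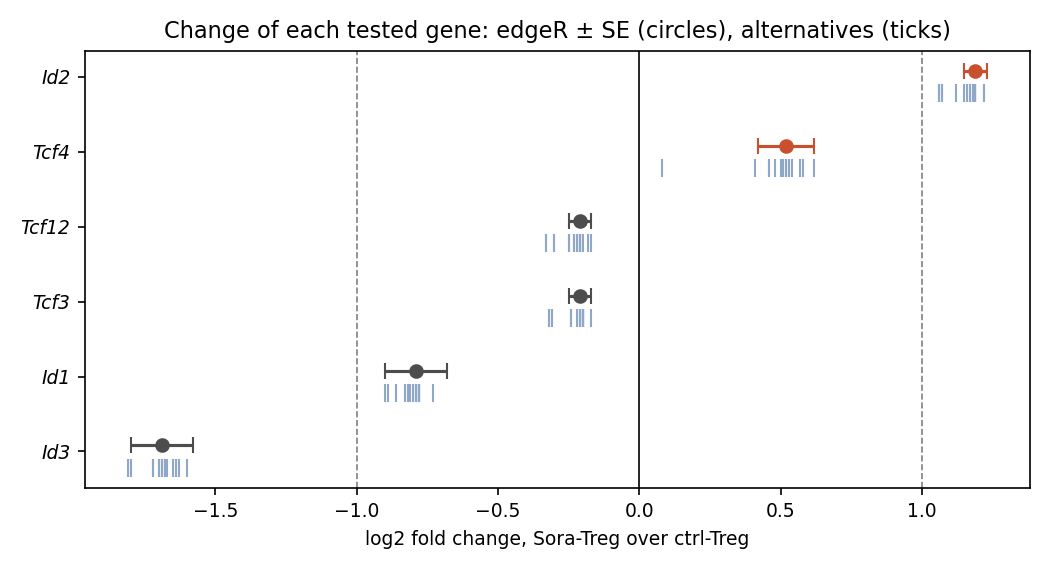
Log2 fold change of each tested member in Sora-Treg relative to ctrl-Treg cells (x axis), with the standard error of the edgeR fit as bars (circles red where higher, grey where lower) and dashed lines at the DEG limit of 1 in each direction. Ticks under each circle are the alternative fits, of which the leftmost for Tcf4 (0.0799) is on log2(FPKM + 1) without a filter, a scale that shrinks the change of genes with low FPKM. Id2 at 1.19 lies above the upper limit and Id3 at -1.69 below the lower one, in the alternative fits too, while Id1, Tcf3, Tcf12 and Tcf4 lie between them.

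Id2 was the member with the highest level per length and the one that rose most. Its level, in TMM-scaled CPM (counts scaled to library size), was 68.6, 67.5 and 72.7 across the 3 controls, against 159, 164 and 152 with Sora. Every Sora-Treg library lay above every ctrl-Treg library, with a wide gap between the groups. The mean went from 69.6 ± 2.77 to 158 ± 6.09 CPM (SD, n = 3), a 2.27-fold rise and a log2 fold change of 1.19 with an SE of 0.04 (adjusted p = 3.07e-17 by edgeR). The counts behind it were 2322 to 2699 in ctrl-Treg cells, against 4836 to 5397 in Sora-Treg cells. Of all tested genes, 5.1% had a higher log2 fold change than Id2.

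Id3 moved the opposite way. Its levels were 14.9, 16.7 and 15.5 CPM across the 3 controls, against 4.28, 4.64 and 5.65 CPM with Sora. The highest Sora-Treg library stayed far below the lowest ctrl-Treg library. The mean fell from 15.7 ± 0.886 to 4.86 ± 0.706 CPM (SD, n = 3), which is 3.22-fold lower, and its log2 fold change was -1.69 with an SE of 0.11 (adjusted p = 5.04e-12 by edgeR). It rested on 496 to 607 counts per ctrl-Treg library and 130 to 201 per Sora-Treg library. Of all tested genes, 2.05% had a lower log2 fold change than Id3.

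Id1, an Id gene best known as a target of BMP signals, fell less than Id3. It had 9.91, 9.48 and 10.0 CPM across the 3 controls, against 6.23, 5.21 and 5.59 CPM with Sora. The groups were apart, and the spread within each was small against the gap. The mean fell from 9.8 ± 0.285 to 5.68 ± 0.516 CPM (SD, n = 3), which is 1.73-fold lower, and its log2 fold change of -0.79 with an SE of 0.11 (adjusted p = 1.75e-06 by edgeR) did not reach the DEG limit. Id1, on 166 to 390 counts per library, was measured with the same standard error as Id3.

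Id4, which is known mainly from the nervous system and other tissues outside the T lineage, was at the limit of detection. It had 1, 2 and 0 counts across the 3 controls, against 3, 1 and 2 counts with Sora. A floor of 3 counts corresponds to 0.0762 to 0.0989 CPM in these libraries and covers counting error only. Id4 lay at or below that floor in all 6, so it was not tested, no fold change is given, and a difference was not detectable at this depth.

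**Figure D2:**
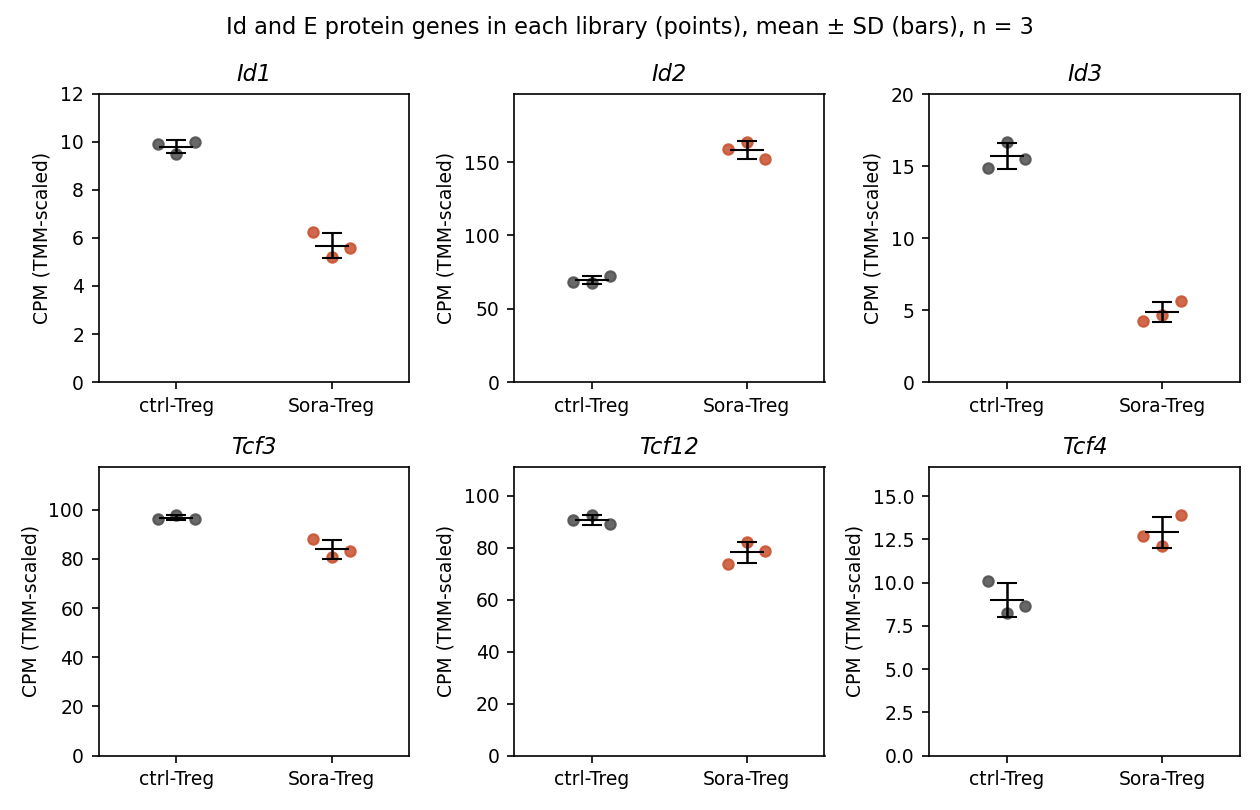
TMM-scaled CPM (y axis, from 0, with its own scale in each panel) of each tested member in the 3 ctrl-Treg (grey) and 3 Sora-Treg (red) libraries (points), with the group mean as a line and the SD as bars. The groups do not overlap in any of the panels, with the widest gaps relative to level for Id2 and Id3, and Id4 is not drawn because it had at most 3 counts in every library.

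Among the E proteins the changes were smaller. Tcf3 encodes E2A, the E protein of lymphocytes whose splice forms are E12 and E47. It had 96.3, 97.8 and 96.3 CPM across the 3 controls, against 88.2, 80.6 and 83.2 CPM with Sora. The groups did not overlap, although the gap between the nearest libraries was narrow. The log2 fold change was -0.21 with an SE of 0.04 (adjusted p = 0.000105 by edgeR), between means of 96.8 ± 0.865 and 84.0 ± 3.83 CPM (SD, n = 3).

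Tcf12 encodes HEB, the partner of E2A in developing T cells. Its levels were 90.7, 92.6 and 89.0 CPM across the 3 controls, against 73.9, 82.1 and 78.7 CPM with Sora. All Sora-Treg libraries again lay below all ctrl-Treg libraries. The mean fell from 90.8 ± 1.83 to 78.2 ± 4.11 CPM (SD, n = 3), which is a log2 fold change of -0.21 with an SE of 0.04 (adjusted p = 0.000121 by edgeR). Changes of this size were common, since 60.3% of tested genes had a larger absolute log2 fold change than Tcf3 and 58.9% a larger one than Tcf12.

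Tcf4 encodes E2-2, the E protein known for its role in plasmacytoid dendritic cells, and it was the E protein that rose. Its levels were 10.1, 8.24 and 8.67 CPM across the 3 controls, against 12.7, 12.1 and 13.9 CPM with Sora. The ctrl-Treg libraries all lay below the Sora-Treg libraries. The mean went from 8.99 ± 0.948 to 12.9 ± 0.929 CPM (SD, n = 3), a 1.44-fold rise and a log2 fold change of 0.52 with an SE of 0.10 (adjusted p = 9.37e-05 by edgeR).

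Other cell types could carry these transcripts, so their marker genes were read in the same libraries. In bulk samples, fewer cells of a type and less RNA per cell cannot be told apart. Of 6 plasmacytoid dendritic cell markers, 5 were in the table and 4 were tested, and all 4 (Spib, Cox6a2, Ccr9 and Bst2) were lower in Sora-Treg cells, as were 29.9% of all tested genes, while Tcf4 was higher. Their summed level was 74.4 to 79.4 CPM in ctrl-Treg cells, against 42.7 to 44.5 CPM in Sora-Treg cells, most of it from Bst2, and Klk1 had at most 3 counts in any library. Spib, a transcription factor also found in B cells, went from 12.9 ± 0.757 to 0.27 ± 0.153 CPM (SD, n = 3), and Siglech was not analysed here. The part of these transcripts in the level of Tcf4 was not tested.

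Myeloid markers differed among the control libraries themselves. The summed level of 7 myeloid genes was 93.5 and 93.0 CPM in ctrl-Treg 1 and 2, against 24.9 CPM in ctrl-Treg 3 and 20.8 to 42.9 CPM in Sora-Treg cells, and each of the 7 had over 3 counts in at least 1 library. Over all 6 libraries 5 of the 7 were called lower (beside 29.9% of all tested genes), and without ctrl-Treg 1 and 2 none of these 5 was called. The differences of the members were of like size without ctrl-Treg 1 and 2, which leaves 1 control library, itself with 24.9 CPM of these markers. The part of myeloid transcripts in the levels of the members was not tested. Using ctrl-Treg 3 alone as the control was a choice made after seeing the data. The single library is then assumed to vary like the Sora-Treg group, and the spread among controls is not measured. With this choice Id2 had a log2 fold change of 1.12 and Id3 of -1.67. Under the same choice Id1 had -0.82, Tcf3 -0.20, Tcf12 -0.18 and Tcf4 0.58, and all 6 members kept their direction.

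B cell markers were low in both groups. Cd79b went from 8.39 ± 0.233 to 6.57 ± 0.777 CPM (SD, n = 3), Cd79a and Pax5 were below 1 CPM on average in both groups, and all 3 were called lower by edgeR, beside the same 29.9%. The call was lost for Pax5 when any library but Sora-Treg 3 was left out, for Cd79b without Sora-Treg 2, and for Cd79a, Cd79b and Pax5 with ctrl-Treg 3 alone as the control. Their part in the lower levels of Tcf3 and Id3, which B cells also express, was not tested. The 5 CD8 and innate lymphoid markers were of interest because innate lymphocytes are rich in Id2. They summed to 15.4 to 17.3 CPM in ctrl-Treg cells, against 16.7 to 18.3 CPM in Sora-Treg cells. Cd8b1, a CD8 gene, made up most of this sum (11.3 ± 1.16 against 11.6 ± 0.586 CPM, SD, n = 3). Klrb1c and Klra7, which natural killer cells can express, had at most 3 counts in any library. Of the 3 tested genes among these markers, Eomes was higher, Cd8a lower and Cd8b1 not called. Eomes went from 2.21 ± 0.12 to 4.53 ± 0.436 CPM and Cd8a from 2.65 ± 0.137 to 1.62 ± 0.186 CPM (SD, n = 3). The part of innate lymphoid transcripts in the level of Id2 was not tested. The 7 stromal and endothelial markers summed to 12.5 to 15.8 CPM in ctrl-Treg cells, against 39.3 to 42.8 CPM in Sora-Treg cells. Most of that came from Pecam1, which T cells also express (11.4 ± 1.34 against 39.4 ± 1.25 CPM, SD, n = 3), while the endothelial gene Cdh5 had at most 3 counts. Of the 4 tested genes of this list, Pecam1 was higher, Col3a1 lower (-2.0 with an SE of 0.58 on the log2 scale) and 2 were not called, with a median of -0.47. The calls of Col3a1 and Cd8a were lost with ctrl-Treg 3 alone as the control.

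As a check of the label of the cells, T and Treg identity genes were present in all libraries. Of 9 such genes, 8 were called higher (beside 29.7% of all tested genes) and Ikzf2 was not called, although the changes of Cd4 (0.06) and Foxp3 (0.07) on the log2 scale were smaller than the shift between scalings. The most changed were Ctla4 (1.53 ± 0.03), Cd3g (1.26 ± 0.03), Il2ra (0.97 ± 0.02), Tnfrsf18 (0.81 ± 0.03) and Cd3d (0.75 ± 0.03), on the log2 scale with SE. Foxp3, named here with Cd4 and Ikzf2 after its values were seen, was at 259 ± 8.99 CPM in ctrl-Treg cells, against 272 ± 4.75 CPM (SD, n = 3) in Sora-Treg cells, and its groups overlapped.

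To compare levels between members, the deposited FPKM values were used, in which the count is divided by a single length for each gene and by the sum of the library. In ctrl-Treg cells the order was Id2 (56.9 ± 2.26 FPKM), Tcf3 (26.7 ± 0.184), Id3 (17.2 ± 0.918), Tcf12 (9.63 ± 0.187), Id1 (8.79 ± 0.272), Tcf4 (0.211 ± 0.023) and Id4 (0.00703). In Sora-Treg cells it was Id2 (119 ± 4.58 FPKM), Tcf3 (21.4 ± 1.01), Tcf12 (7.67 ± 0.389), Id3 (4.89 ± 0.708), Id1 (4.70 ± 0.436), Tcf4 (0.28 ± 0.0202) and Id4 (0.0151), all SD with n = 3. Neighbours in each order were apart in every library, except Id3 and Id1 in Sora-Treg cells, whose ranges overlapped. With the lengths behind these values, Id3 thus went from above Tcf12 to the level of Id1.

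The length used matters for this order. The length implied by the FPKM values was 44311 bases for Tcf4, where the longest coding transcript in GENCODE M21 has 8577 bases. With the longest coding transcript as the length, an alternative chosen after seeing the data, Tcf4 was at 1.09 ± 0.119 in ctrl-Treg cells, against 1.45 ± 0.104 in Sora-Treg cells on the FPKM scale. On that scale Tcf12 (15.0 ± 0.291) lay above Id3 (12.8 ± 0.684) already in ctrl-Treg cells. In Sora-Treg cells Id3 (3.65 ± 0.528) then lay below Id1 (4.7 ± 0.436), with no overlap of their ranges. Tcf4 stayed below Tcf12, Tcf3, Id1, Id2 and Id3 with either length, and fold changes of a gene between groups do not depend on its length.

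Because Id2 and Id3 moved in opposite directions, their ratio was given for each library, as a description with no test. The ratio of Id2 to Id3 FPKM was 3.44, 3.03 and 3.51 across the 3 controls, against 27.9, 26.4 and 20.1 with Sora. The mean ratio was 3.33 ± 0.258 in ctrl-Treg cells, against 24.8 ± 4.12 in Sora-Treg cells (SD, n = 3), a 7.46-fold difference. Id2 made up 68.7% ± 1.17 of the summed Id FPKM in ctrl-Treg cells, against 92.5% ± 0.756 in Sora-Treg cells. The share of Id3 was 20.7% ± 1.32 and 3.8% ± 0.661, and that of Id1 10.6% ± 0.286 and 3.64% ± 0.364, in the same order of groups. The ratio of Id1 to Id3 was 0.545, 0.467 and 0.53 across the 3 controls, against 1.19, 0.921 and 0.813 with Sora.

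**Figure D3:**
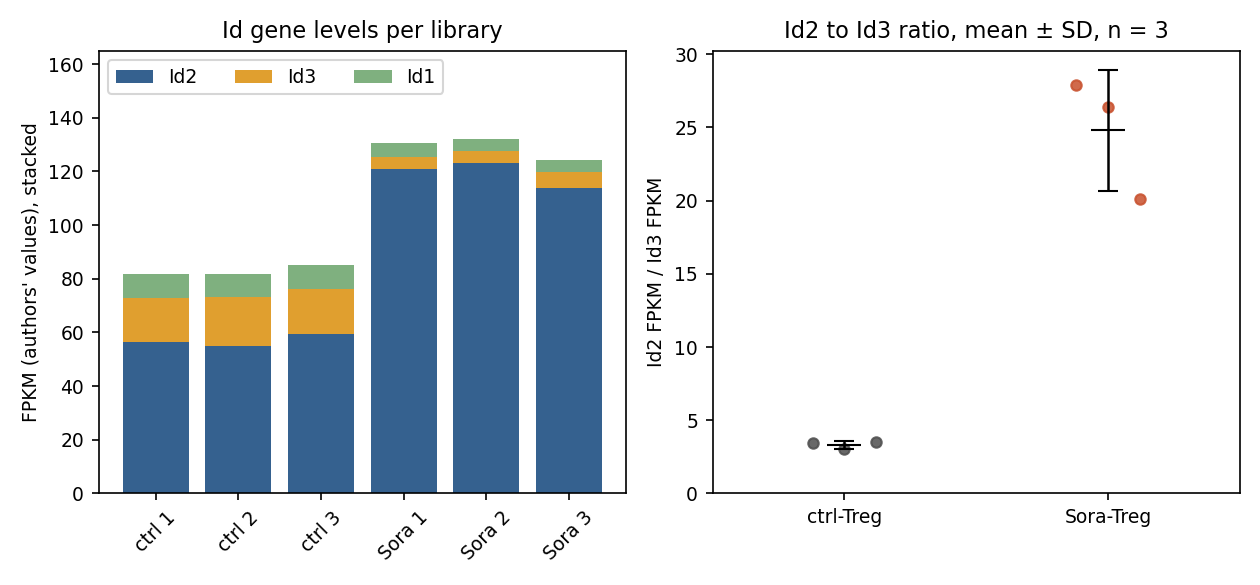
Left, FPKM of Id1, Id2 and Id3 stacked for each library (y axis, from 0), and right, the ratio of Id2 to Id3 FPKM for each library (points) with the group mean and SD (line and bars, n = 3). Id2 takes most of every stack and a larger part of it in Sora-Treg cells, and the ratio is 3.03 to 3.51 in ctrl-Treg and 20.1 to 27.9 in Sora-Treg libraries.

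The sum of the Id genes rose although 2 of its members fell. Summed Id FPKM was 81.5, 81.7 and 85.3 across the 3 controls, against 130.1, 132 and 125 with Sora, so the gain of Id2 exceeded the loss of Id1 and Id3 on this scale. Summed E protein FPKM was 36.5, 36.9 and 36.2 across the 3 controls, against 30.0, 28.8 and 29.2 with Sora. FPKM values are scaled by library totals alone, which makes this fall larger than under TMM scaling. With library totals alone the log2 fold changes of Tcf3 and Tcf12 were -0.32 and -0.33, against -0.21 each with TMM. The ratio of the sums was 2.27 ± 0.079 in ctrl-Treg cells, against 4.4 ± 0.171 in Sora-Treg cells (SD, n = 3). With the longest coding transcript as the length, the ratio was 1.16 and 2.1, so its level depends on the lengths while the order of the groups was the same. These are transcript ratios, and protein was not measured here.

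Within the E proteins the balance of Tcf3 and Tcf12 was similar in the groups, with a Tcf3 to Tcf12 FPKM ratio of 2.77 ± 0.0368 in ctrl-Treg cells, against 2.8 ± 0.277 in Sora-Treg cells, and overlapping ranges. The Tcf12 to Tcf4 ratio was 46.0 ± 5.03 and 27.5 ± 2.76. The Id2 to Tcf3 ratio was 2.13 ± 0.098 and 5.59 ± 0.367, the Id1 to Tcf3 ratio 0.329 ± 0.0124 and 0.219 ± 0.00989, and the Id3 to Tcf3 ratio 0.642 ± 0.0307 and 0.23 ± 0.0382 (SD, n = 3 each).

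Counts per gene hold the isoforms of a gene together, so E12 and E47 of Tcf3 and the long and short forms of Tcf12 could not be told apart. No 50-base window of a member's GENCODE M21 transcripts occurred in the transcripts of another member. The longest run shared by Id2 and Id3 was 19 bases, and that shared by Tcf4 and Tcf12 was 47 bases. With other genes, Id2 shared 8 of its 2433 windows (0.329%), all with Gm6175. Id4 shared 79 windows (2.08%), Tcf4 65 (0.228%) and Tcf12 39 (0.242%) with other genes, and Id1, Id3 and Tcf3 shared none. Whether the counting used strand is not given in the sources used here, so reads from antisense transcripts over a member cannot be told apart.

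Other genes of the pathway were then read from lists of genes known to act with, upstream or downstream of the members. Of the 49 tested genes in 6 such lists, 21 (42.9%) were called higher and 15 (30.6%) lower by edgeR, beside 29.7% and 29.9% of all tested genes. With libraries scaled by their totals alone these counts were 17 and 24. The lists describe the setting of the members and carry no test of their own.

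Partners and cofactors of E proteins went both ways. Of 10 tested genes, 4 were higher and 2 lower, with a median log2 fold change of 0.19 beside 0 over all tested genes. Ascl2 and Lyl1, tissue-restricted basic helix-loop-helix factors that pair with E proteins, rose by 1.44 ± 0.34 and 1.05 ± 0.13 on the log2 scale (SE), from low levels of 0.786 ± 0.392 and 4.34 ± 0.48 CPM (SD, n = 3). Lmo4, a LIM-only adaptor, fell by 0.93 with a standard error of 0.08. Of the histone acetyltransferases that E proteins recruit, Ep300 was higher (0.50 ± 0.03) and Kat2a lower (-0.43 ± 0.05). Kat2b was also higher (0.34 ± 0.05), and Crebbp was not called (0.03 ± 0.04). Tal1, the best known partner of E proteins in leukemia, had 1 count in all in ctrl-Treg cells, against 3 in Sora-Treg cells.

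Among genes that set the stability of Id and E proteins, Usp1, the deubiquitinase that protects Id proteins from degradation, fell by 0.48 with an SE of 0.04 on the log2 scale (adjusted p = 1.27e-09 by edgeR). Its cofactor Wdr48 (UAF1) was higher by 0.26 ± 0.04. Skp2, a ubiquitin ligase subunit linked to E2A turnover, had a log2 fold change of -0.48 ± 0.14. The remaining 2 of the 5 tested genes were not called, and the median was -0.09.

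Among genes of the BMP and SMAD pathway, a known route to Id1, Id2 and Id3 whose list also held the inhibitory Smad6 and Smad7, 4 of 10 tested genes were higher and 4 lower, with a median of -0.04. The type I receptor genes Acvrl1 (ALK1) and Bmpr1a (ALK3) rose, by 1.25 ± 0.04 and 1.09 ± 0.06 on the log2 scale (SE). Acvrl1 went from 59.7 ± 0.221 to 142 ± 4.44 CPM (SD, n = 3). The coreceptor gene Eng and the receptor-activated Smad1 fell, with log2 fold changes of -1.19 ± 0.12 and -0.56 ± 0.08 (SE). Smad6, an inhibitory SMAD and itself a known BMP target, had -1.83 with an SE of 0.48 (adjusted p = 0.00212 by edgeR) on 68 counts in all against 17, and this call was lost with ctrl-Treg 3 alone as the control (-1.59, adjusted p = 0.135).

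Of the Egr factors, which are known to induce Id3 after T cell receptor signals, Egr3 fell from 81.3 ± 0.817 to 22.2 ± 1.25 CPM and Egr2 from 49.6 ± 1.32 to 17.1 ± 1.15 CPM (SD, n = 3). Their log2 fold changes were -1.87 ± 0.05 and -1.53 ± 0.06 (SE, edgeR adjusted p = 4.61e-19 and 5.92e-16). Egr1 was also lower, by less (-0.26 ± 0.04), and Nab2, a corepressor of Egr factors, was higher (0.42 ± 0.04). Of the 5 genes, 1 was higher, 3 were lower and Nab1 was not called. The study reports more phosphorylated ERK and MEK protein in CD4+ T cells treated with Sora under Treg-skewing conditions. ERK activity was not measured in these libraries, and its part in the levels of the Egr genes and Id3 was not tested.

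Genes that E proteins are known to regulate in T cells went both ways. Of 14 tested genes, 8 were higher, Cd4 and Foxp3 among them by less than the shift between scalings, and 4 were lower, with a median log2 fold change of 0.09. Dntt, the terminal transferase of early lymphocytes, had the largest change in this list, from 4.93 ± 0.542 to 36.4 ± 1.05 CPM (SD, n = 3), and its log2 fold change was 2.89 with an SE of 0.08 (adjusted p = 2.71e-18 by edgeR). Il7r, the interleukin-7 receptor, Cxcr4, a chemokine receptor, and Socs3, a cytokine signaling inhibitor, rose by 1.30 ± 0.05, 1.19 ± 0.04 and 0.95 ± 0.03. Notch3 fell, with a log2 fold change of -1.15 ± 0.05 (SE). The pre-T cell receptor gene Ptcra, a classical E protein target of the thymus, had 1 count in all in ctrl-Treg cells, against 2 in Sora-Treg cells.

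Among other helix-loop-helix repressors, 3 of 5 tested genes were higher and the remaining 2, Hey2 and Bhlhe41, were not called. Hey1, a Notch target, rose by 2.60 ± 0.25 (SE) on the log2 scale, at an adjusted p of 5.77e-09 by edgeR, from 0.689 ± 0.167 to 4.17 ± 0.724 CPM (SD, n = 3). Hes6 and Bhlhe40 rose by 0.69 ± 0.06 and 0.23 ± 0.02.

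**Figure D4:**
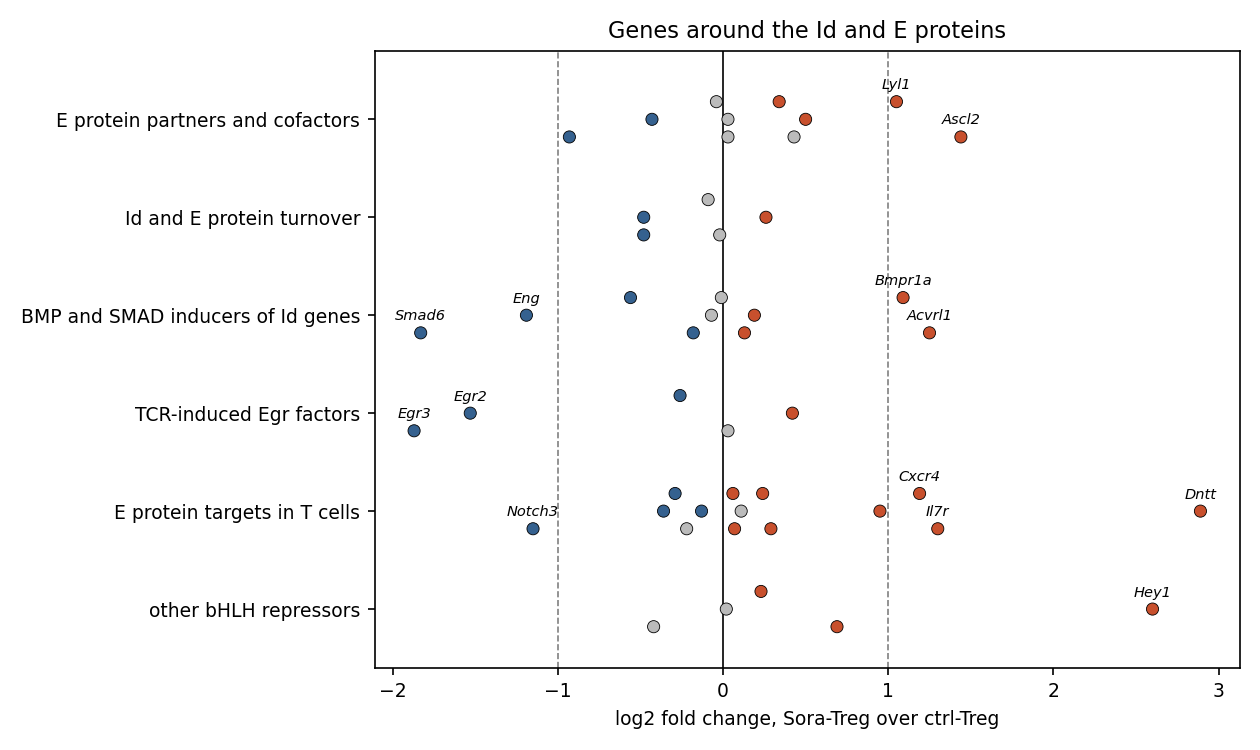
Log2 fold change in Sora-Treg relative to ctrl-Treg cells (x axis) of every tested gene in the pathway lists (one row per list). Each point is a gene, red where called higher, blue where called lower and grey where not called by edgeR at an adjusted p of 0.05, the height of a point within its row carries no value, and dashed lines mark the DEG limit of 1. Every row but the last has called genes on both sides of 0, with Dntt at 2.89 and Egr3 at -1.87 the outermost.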

How the data were processed

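RNA of 3 ctrl-Treg and 3 Sora-Treg samples was measured by RNA-seq, and groups were taken from the sample titles. The authors deposited raw read counts per gene symbol and FPKM values for the same 22939 genes. The study's methods name Bowtie2 and GRCm38, while the submitters' processing notes name fastp, HISAT2, HTSeq, R 3.2.0, DESeq2 and GRCm39, so the aligner and build behind the counts are unsettled. Strand setting and annotation release are not given in the sources used here, and coordinates printed are those of the RefSeq promoter windows only. Each deposited FPKM value was the count over a gene's single length and over the library's sum (largest relative difference 1.64e-06), so it is no separate measurement.

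Differences in counts were tested by quasi-likelihood in edgeR 4.0.16 (R 4.3.3), with TMM scaling, filterByExpr, no covariate and Benjamini-Hochberg adjustment over 13463 genes. The standard error is the one the F statistic implies. Total counts were 30727686 to 37717324 per library. Libraries of a group differed by more than sampling noise (chi-square per degree of freedom 3.36 to 5.91). The script was tested on simulated data. With 3 libraries against 3, an exact permutation test has a smallest p of 0.1, which is why p-values come from the fit over all genes.

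Named genes were all members, at most 5 called genes per list by the size of the log2 fold change, genes given by counts only, and the 3 genes most like each member that was a DEG (root mean square difference of centred log2 CPM, prior count 2). Others were chosen after their values were seen. The members and lists were chosen with earlier results of these data known. Runx1t1, Bmpr1b, Rag2 and Siglech were not analysed here. One marker gene is not reported here. Alternatives were RLE, upper quartile and library-total scaling, 2 other filters, DESeq2 1.42.0, robust fitting, a block on replicate number, leaving out each library, and limma 3.58.1 on log2(FPKM + 1), with and without a minimum mean FPKM of 0.5, and on log2(FPKM + 0.1). Promoter windows were matched by symbol for 5 of the 7 members, with no entry found for Id1 and Tcf4 left out by choice.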

Additional observations from a re-analysis of the deposited data

How the results depend on the processing

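In 106 of 106 alternative fits of a member, the direction and the call were those of the report. Id2 ranged from 1.06 to 1.22 and Id3 from -1.81 to -1.60 on the log2 scale over these fits. Over the same fits Id1 ranged from -0.9 to -0.73, Tcf3 from -0.32 to -0.17, Tcf12 from -0.33 to -0.17 and Tcf4 from 0.0799 to 0.62. With a library left out, Id1 ranged from -0.86 to -0.73, Tcf3 from -0.24 to -0.17, Tcf12 from -0.25 to -0.17 and Tcf4 from 0.46 to 0.62. Tcf4 lies below the FPKM filter, so limma counted 1 member higher with a pseudocount of 1 and 1 with 0.1. Of 53 other genes named by the rules for lists and likeness, 41 had no change of direction or call.

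Limma on log2(FPKM + 1) called 2413 genes higher and 4970 lower, with 275 DEGs higher and 186 lower. A pseudocount of 0.1 gave 2346, 4866, 419 and 413, and no filter gave 2559, 5031, 274 and 184. FPKM values carry no scaling beyond library totals. A pseudocount of 1 by construction shrinks changes of low genes. With library totals alone, 24 pathway list genes were lower against 15 in the report. With the longest coding transcript as the length, the Id2 to Id3 ratio was 2.88 in ctrl-Treg cells, and the ratio of summed Id to summed E protein FPKM was 1.16 in ctrl-Treg cells, against 2.1 in Sora-Treg cells. With ctrl-Treg 3 alone as the control, the myeloid genes Adgre1, Csf1r and Itgam turned to 0.61, 0.53 and 0.72, none of them called.

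The labels do not say whether shared replicate numbers pair the libraries. Between libraries of the same number, deviations from the group mean had correlations of -0.0438, 0.0591 and 0.0299. These were taken over all tested genes, low ones included, and cannot settle whether the libraries were paired. A fit with replicate block gave 850 higher and 673 lower DEGs, Id2 was at 1.19 and Id3 at -1.69, and 2 members were called higher and 4 lower. Depth limits Id4 alone among the members.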

Other observations

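The genes whose pattern over the 6 libraries was most like that of Id2, by the root mean square difference of log2 CPM centred on each gene's mean, were Cyp11a1 (0.0204), Me2 (0.0352) and Sbsn (0.0388). Cyp11a1, the enzyme that starts steroid hormone synthesis from cholesterol, was also close to Id2 in level, with 68.0 ± 2.24 CPM in ctrl-Treg cells, against 158 ± 3.91 CPM (SD, n = 3) in Sora-Treg cells, and its log2 fold change was 1.22 with an SE of 0.04 (adjusted p = 6.8e-18 by edgeR). Me2, a mitochondrial malic enzyme, went from 119.9 ± 3.92 to 266 ± 2.46 CPM. In all, 90 genes lay within 0.1 of Id2 on this measure.

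For Id3 the nearest genes were Apol9b (0.0555), Prag1 (0.0694) and Tacc2 (0.0705), and 8 genes lay within 0.1. Tacc2, a centrosomal coiled-coil gene, went from 19.9 ± 0.315 to 6.63 ± 0.79 CPM (SD, n = 3), which is a log2 fold change of -1.58 with an SE of 0.09 (adjusted p = 1.04e-12 by edgeR). The measure ranks likeness over 6 libraries that differ mainly by group, so it carries no test.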
